A study of Mus musculus with 12 samples.

Results

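The RNA of 2 of the 12 sequenced libraries of mouse liver tumour organoid cells was described here: the third replicate of the untreated LGR5- cells and that of the LGR5- cells treated with 5-FU. They were selected on a measured value, a share above 5% of reads in genes encoded by mitochondrial DNA (symbols starting with mt-), from 6 LGR5- libraries. They were set against the other 4 LGR5- libraries within each treatment. Mitochondrial DNA encodes a small set of subunits of the respiratory chain with the ribosomal and transfer RNAs needed to translate them, while all other mitochondrial proteins come from nuclear genes. Cytoplasmic messenger RNA, mitochondrial RNA and nuclear RNA lie in different compartments of the cell, and introns, small nucleolar RNAs and many long noncoding RNAs stay in the nucleus. The results below are therefore about the nuclear genes that differed together with the mitochondrial share in both treatments.

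The organoids, cultures of epithelial cells grown in a gel, came from liver tumours that the carcinogen DEN had induced in mice of the Lgr5-DTR-GFP line, in which the Lgr5 promoter drives a diphtheria toxin receptor and GFP, so that every library carries this allele. LGR5 is a receptor for R-spondins that strengthens Wnt signalling and marks stem cells in several epithelia. Cells were sorted by GFP into LGR5+ and LGR5- fractions after leucocytes bearing CD45 and dead cells stained by propidium iodide had been gated out. There were 3 libraries each of untreated LGR5-, untreated LGR5+, 5-FU-treated LGR5- and 5-FU-treated LGR5+ cells; 5-FU (5-fluorouracil) blocks thymidylate synthesis and disturbs RNA processing. The dose and duration behind these libraries, and whether replicates came from separate organoid lines, cultures or sorts, were not given in the sources used here, so p-values measure only the spread between these samples, which may be technical.

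The 12 libraries held 13750591 to 19323514 reads assigned to genes. The mitochondrial share was 1.68%, 1.64% and 6.93% of reads in replicates 1, 2 and 3 of the untreated LGR5- cells and 3.08%, 2.005% and 6.44% in those of the 5-FU-treated LGR5- cells. The lowest value inside the cutoff was thus 6.44% and the highest outside it 3.08%, and the 6 LGR5+ libraries lay between 1.47% and 2.08%. The makeup of the mitochondrial reads was not alike in both libraries. The mitochondrial ribosomal RNAs made up 58.5% of the mitochondrial reads in untreated replicate 3 but 21.1% in 5-FU replicate 3, against 29.8% to 67.7% in the other 10 libraries. Transcripts of the mitochondrial protein genes took 2.88% and 5.08% of all reads in the libraries labelled replicate 3 and 0.672% to 1.29% elsewhere.

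Lgr5 itself, the gene behind the sort, did not separate the fractions. It stood at 28.8, 24.1 and 37.2 CPM (the usual depth-scaled read count, here relative to nuclear-gene reads) in the untreated and 22.4, 19.2 and 38.8 CPM in the 5-FU-treated LGR5- cells, so that replicate 3 was highest in both. LGR5+ cells held 23.8 to 27.3 CPM on a scale set among the LGR5+ libraries. In the fit over 12 libraries, Lgr5 differed between LGR5+ and LGR5- cells by -0.17 ± 0.23 (log2, SE, edgeR adjusted p = 1) without treatment and by 0.11 ± 0.23 (adjusted p = 0.842) with 5-FU. The tissue label was also checked, with genes picked after their values had been seen. The hepatocyte product Alb (albumin) had 2 to 33 reads in a library, whereas Sftpc, which encodes the lung surfactant protein C, had 46591 to 315963 reads and Krt19, a keratin of bile duct and other simple epithelia, 6169 to 76666 reads.

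**Figure D1:**
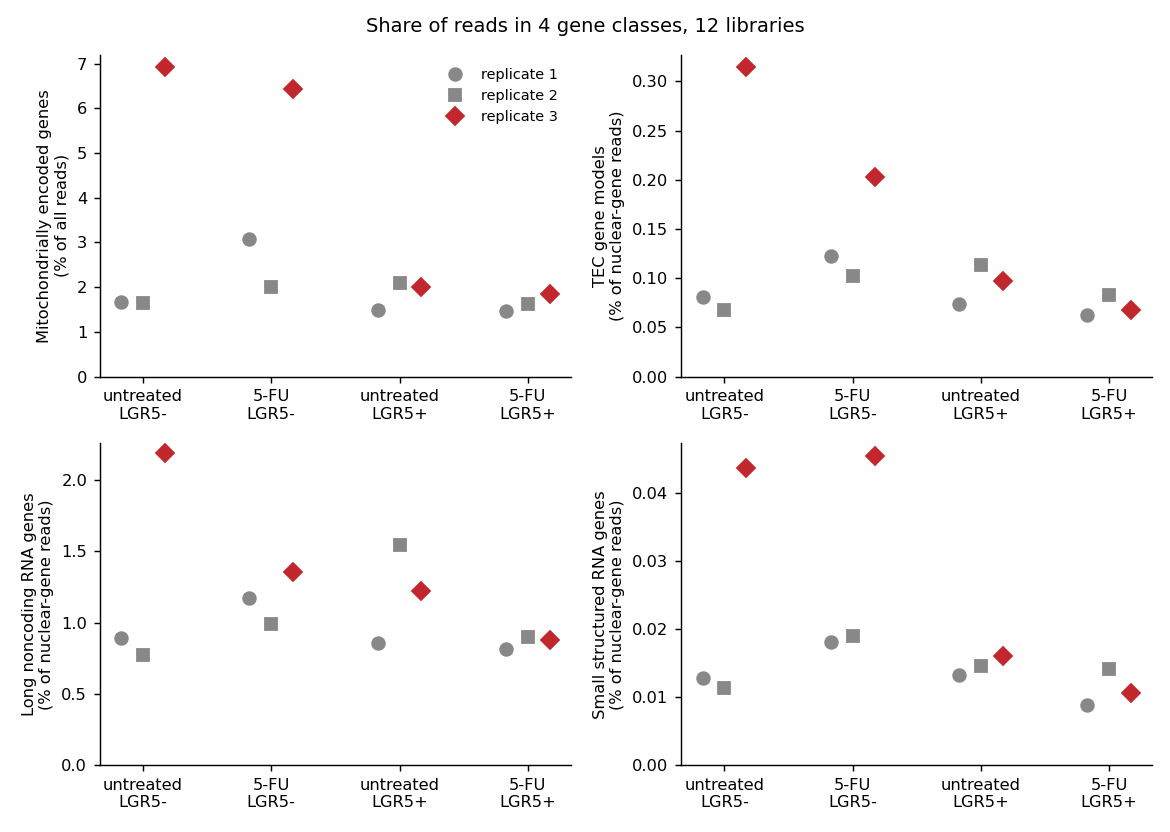
Each point is 1 library and its shape gives the replicate (red, replicate 3); the vertical axes give the percentage of reads in mitochondrially encoded genes (of all reads) or in 3 classes of noncoding gene (of nuclear-gene reads), by group on the horizontal axis. The 2 selected LGR5- libraries stand above the other LGR5- libraries in all 4 panels, with 0.315% and 0.202% of nuclear-gene reads in TEC models, against 0.0624% to 0.114% in LGR5+ cells; for long noncoding RNA, untreated LGR5+ replicate 2 (1.54%) lies above 5-FU LGR5- replicate 3 (1.36%).

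Of 57 measured small structured RNA genes, many of whose products work in the nucleus or nucleolus, 20 were called higher in both treatments by the rule given below, and 3 of the 20 are printed to show the kinds of RNA involved. Rn7sk was among the 12 highest genes, and the other two were not. Rn7sk (chr9:78175303-78175633, minus strand) is the 7SK RNA, which holds the elongation kinase P-TEFb inactive. Snord104 (chr11:106500993-106501062, plus strand) is a box C/D RNA, the class that guides 2'-O-methylation of ribosomal RNA. Snora57 (chr19:8888538-8888685, minus strand) is a box H/ACA RNA, the class that guides pseudouridylation. The sequences are the GENCODE M21 transcripts on GRCm38, 5' to 3'; of Rn7sk the first 150 of 331 bases are given. Capitals mark every GATC in Rn7sk, a tetramer of the hairpin bound by HEXIM proteins, the first TGATGA (the C box letters) and last CTGA (the D box letters) in Snord104, and the last ACA in Snora57, which lies 3 bases from the 3' end.
Rn7sk: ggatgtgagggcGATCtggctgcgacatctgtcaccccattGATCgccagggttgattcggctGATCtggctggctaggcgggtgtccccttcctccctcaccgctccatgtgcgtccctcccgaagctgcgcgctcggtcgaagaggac
Snord104: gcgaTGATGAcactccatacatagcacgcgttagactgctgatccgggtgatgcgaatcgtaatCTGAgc
Snora57: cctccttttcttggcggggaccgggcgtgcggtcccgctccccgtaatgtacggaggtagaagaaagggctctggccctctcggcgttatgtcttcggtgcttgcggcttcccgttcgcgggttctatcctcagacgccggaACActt

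Nuclear genes were compared as log2 differences between replicate 3 and the mean of replicates 1 and 2 within each treatment, after the mitochondrially encoded genes had been taken out of the library totals. A gene was called higher or lower when the difference was at least 1 (a doubling on the linear scale) in the same direction in both treatments and replicate 3 lay beyond both other libraries each time. The libraries had been selected on their own reads, so these differences are a description, with no p-value. Of 15345 nuclear genes with enough reads, 777 were called: 590 (3.84%) were higher and 187 (1.22%) were lower in replicate 3. Scaling by library size only gave 660 higher and 77 lower, as it moved the median of all genes to 0.32 without treatment. In untreated cells alone, 2174 genes (14.2%) were higher and 790 (5.15%) lower. In 5-FU-treated cells alone, 1100 (7.17%) were higher and 854 (5.57%) lower. The genes higher in both treatments were 27.1% of those higher in untreated cells and 53.6% of those higher in 5-FU-treated cells. For lower genes the shared part was 23.7% and 21.9%, and opposite calls numbered 58 (higher without, lower with 5-FU) and 14 (the reverse). As the cells were sequenced in bulk, a smaller number of cells of some kind and less RNA per cell cannot be told apart.

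**Figure D2:**
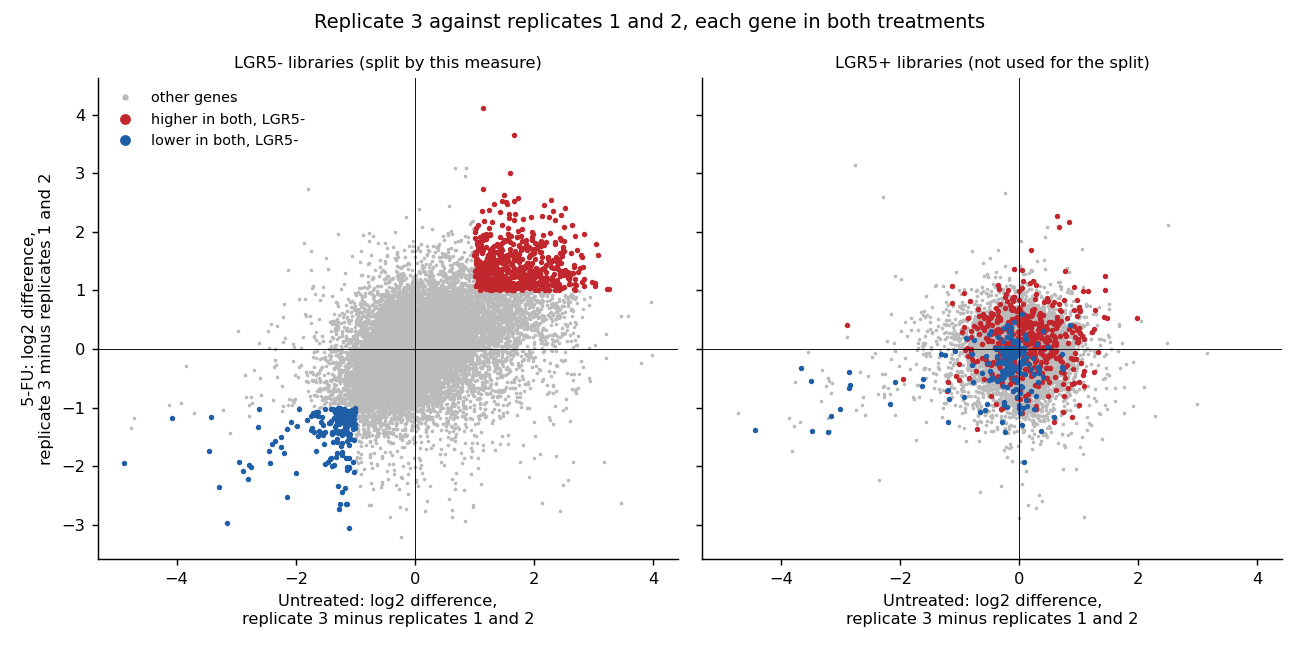
Each point is 1 nuclear gene; the axes give its log2 difference between replicate 3 and the mean of replicates 1 and 2, untreated (horizontal) and with 5-FU (vertical), in LGR5- (left) and LGR5+ libraries (right). The 590 genes higher (red) and 187 genes lower (blue) in both LGR5- contrasts spread around 0 in the LGR5+ libraries, apart from a tail of lower genes in untreated cells.

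The genes called higher were mostly noncoding. Models of the annotation class TEC (models still awaiting experimental proof, mainly unspliced transcripts with no assigned product) were called higher in 161 of 449 cases (35.9%) and lower in 0. Long noncoding RNA genes were higher in 223 of 1100 cases (20.3%) and lower in 1. Small structured RNA genes were higher in 20 of 57 (35.1%) and lower in 0, and miRNA genes higher in 4 of 21. Among 12594 protein-coding genes, 131 (1.04%) were higher and 139 (1.10%) lower. The median log2 difference of all tested TEC models was 1.74 without and 0.86 with 5-FU, compared with -0.08 and -0.09 for protein-coding genes. In the LGR5+ libraries, which the selection did not use, the TEC medians were -0.04 and 0.08.

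**Figure D3:**
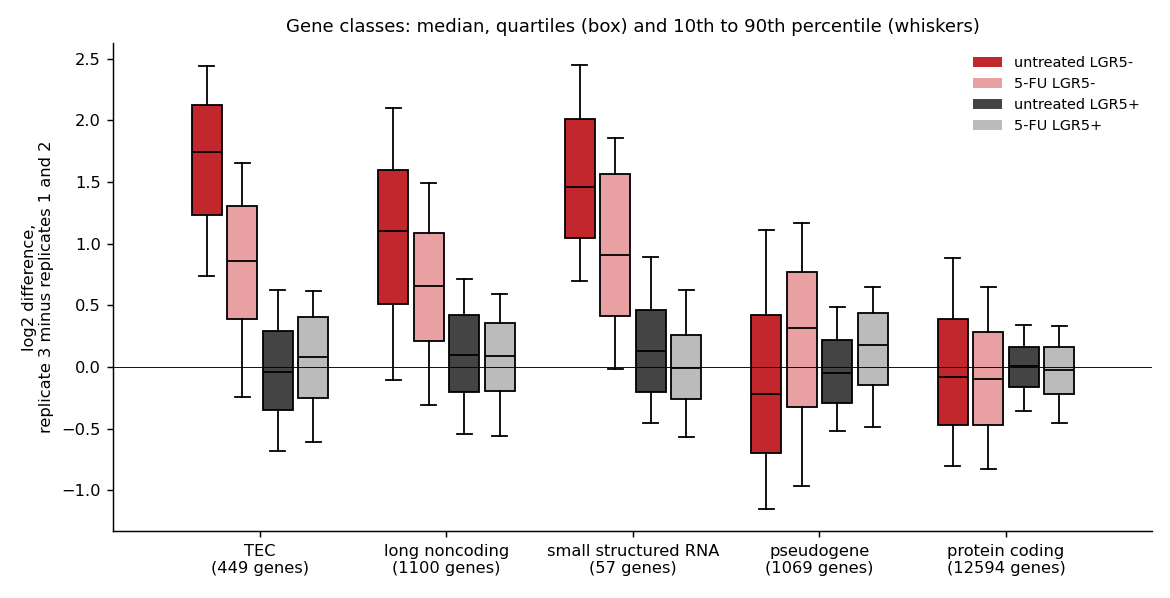
Boxes show the quartiles and median, and whiskers the 10th to 90th percentile, of the log2 difference between replicate 3 and replicates 1 and 2 over the genes of each class, by treatment and sorted fraction. TEC, long noncoding and small structured RNA genes lie above 0 in both LGR5- contrasts, with medians of 1.74, 1.11 and 1.46 without and 0.86, 0.66 and 0.91 with 5-FU, and near 0 in LGR5+ cells.

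TEC models took 0.315% of nuclear-gene reads in untreated replicate 3 against 0.0805% and 0.0682% in replicates 1 and 2. With 5-FU the values were 0.202% against 0.123% and 0.102%. Small structured RNA genes took 0.0437% against 0.0129% and 0.0113% without and 0.0455% against 0.0181% and 0.0190% with 5-FU. For long noncoding RNA genes the shares were 2.19% against 0.891% and 0.777% without treatment, and 1.36% against 1.17% and 0.993% with 5-FU. Replicate 3 was thus the highest LGR5- replicate in these 3 classes in both treatments, with the narrowest gap for long noncoding RNA under 5-FU. The share of miRNA genes did not follow: it was 0.0609% against 0.0628% and 0.0512% without and 0.0322% against 0.0484% and 0.0258% with 5-FU. The pseudogene share was lowest in untreated replicate 3, at 2.39% against 2.62% and 2.57%, and highest in 5-FU replicate 3, at 2.26% against 2.10% and 1.79%.

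Many of the TEC models lay in introns of coding genes. Of the 161 TEC models called higher, 130 (80.7%) lay inside a protein-coding gene on its own strand, and so did 68.2% of all 449 tested. All noncoding genes of the TEC and long noncoding classes that lay wholly within an intron of a measured coding gene were then set against that host, without regard to any call: 386 such genes in 277 hosts. Their median log2 difference was 1.80 without and 0.86 with 5-FU, and that of the hosts 0.16 and 0.02. The intronic gene stood above its host in both treatments in 306 of 386 cases. Of the 154 intronic genes that were called higher, the 123 hosts included 1 called higher and 1 called lower, near the 1.04% and 1.10% of all coding genes. The strand setting of the counting was not given, and reads of an intronic model cannot be told apart from unspliced RNA of the host.

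Gm42725 was the highest of all genes by the smaller of its 2 differences among those with at least 5 CPM. That minimum applied to the higher side of each treatment, which for genes called higher is the selected library itself. Genes low elsewhere thus enter this ranking only through replicate 3. It is a TEC model at chr5:65531568-65535760, in an intron of Smim14. It had 2.98, 1.38 and 12.3 CPM in the untreated and 5.06, 3.32 and 22.3 CPM in the 5-FU-treated LGR5- libraries, replicate 3 last. Its log2 differences were 2.52 and 2.41, while those of the host Smim14, a small membrane protein, were -0.19 and 0.57. Gm37519 (chr1:176974236-176976445), in an intron of Sdccag8, a gene of the centrosome and cilium base, stood at 0.512, 0.863 and 5.51 CPM without and 1.25, 1.29 and 5.30 CPM with 5-FU. Its differences of 2.83 and 1.96 compare with 0.19 and -0.22 for the host. Gm37052, in an intron of Rc3h1 (Roquin, which promotes decay of messenger RNAs), differed by 1.97 and 1.91 (host 0.51 and 0.49), and Gm42728, in an intron of Pds5a (a cohesin regulator), by 2.5 and 1.84 (host 0.75 and 0.39). In each of these 4 genes the 2 selected libraries lay above the other 4 LGR5- libraries. The TEC models Gm42639 and D530018E20Rik, the bidirectional transcript Gm10101, the processed transcript Gm13648 and the antisense transcript 5031415H12Rik were also among the 12 highest, with smaller differences of 1.66 to 1.95.

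Among small structured RNAs, Rn7sk had 3.36, 13.0 and 36.8 CPM without and 27.1, 55.0 and 141 CPM with 5-FU. Its replicates 1 and 2 were themselves far apart, the log2 differences were 2.45 and 1.87, and the treatment-blocked estimate was 1.97 ± 0.54 (SE). Snora57 gave 2.85, 3.45 and 9.69 CPM without and 1.81, 1.72 and 9.18 CPM with 5-FU, a blocked difference of 1.99 ± 0.30. Snord104 gave 11.5, 8.92 and 23.1 CPM without and 13.4, 15.0 and 38.1 CPM with 5-FU, and differed by 1.31 ± 0.19. Snord118, the U8 RNA needed for processing of the large ribosomal subunit RNAs, had 27, 24 and 103 reads without and 23, 12 and 49 reads with 5-FU. By class, 9 of 27 snoRNA genes, 5 of 16 snRNA genes and 0 of 3 scaRNA genes were called higher, beside 3.84% of all nuclear genes. Snora57, Snord104 and Snord118 were picked after their values had been seen. Their differences in LGR5+ cells were -0.06 and -0.47 for Snora57, 0.33 and 0.23 for Snord104, and 0.89 and -1.15 for Snord118.

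Long RNAs known to stay in the nucleus did not all differ alike in both treatments. Of 25 measured genes on a list of nuclear-retained RNAs and splicing factors, 0 were called in both, with medians of 0.72 and 0.41 against -0.01 and -0.01 over all tested nuclear genes. Neat1, the scaffold of paraspeckles, had 1472, 1381 and 9193 reads without treatment and 1789, 2453 and 2860 reads with 5-FU, log2 differences of 2.61 and 0.80. Kcnq1ot1, an imprinted antisense RNA that acts on chromatin, differed by 1.83 and 0.94. Malat1, an abundant RNA of nuclear speckles, had 36832, 28905 and 113513 reads without but 44300, 47187 and 29623 reads with 5-FU, so that replicate 3 was highest in the first set and lowest in the second. The kinase gene Clk1, whose pre-messenger RNA is known to be held in the nucleus with introns unspliced, differed by 1.04 and 0.74. Snhg1, a spliced host of small nucleolar RNAs, differed by 0.72 and 1.02. None of these 5 genes was called, and they were picked after their values had been seen.

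Protein-coding genes called higher were fewer. Arl5c, a small GTPase of the ARF family (chr11:97989578-97996181), had 16.1, 9.84 and 72.1 CPM without and 43.1, 38.7 and 174 CPM with 5-FU. Replicate 3 lay above all other LGR5- libraries, with a blocked difference of 2.28 ± 0.20, against 0.71 and 0.65 in LGR5+ cells. Several others were noted after their values had been seen. Pabpn1, the nuclear poly(A)-binding protein, stood at 21.6, 18.99 and 63.7 CPM without and 22.5, 21.01 and 47.6 CPM with 5-FU. Ccnt2, a cyclin of P-TEFb, stood at 104, 81.5 and 214 CPM without and 154, 125 and 394 CPM with 5-FU. The circadian transcription factor gene Clock gave 22.1, 18.01 and 46.1 CPM without and 18.1, 18.6 and 40.4 CPM with 5-FU. Cox17 and Pet100, which encode assembly factors of cytochrome c oxidase, differed by 1.25 and 1.21 and by 1.0 and 1.33. By the call rule, replicate 3 lay above both other replicates in both treatments in each of these genes.

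A group of pseudogenes has to be read apart. Of 19 genes that share 31-base words with mitochondrial transcripts, 9 had enough reads and 7 of them were called higher, among them Gm28437, a copy of mitochondrial sequence on chromosome 1. Gm28437 had 4646, 603 and 5871 reads without and 3383, 2981 and 14763 reads with 5-FU, and its smaller difference went from 1.73 to 0.19 without untreated replicate 2. Reads of such copies cannot be told apart from those of the mitochondrial genes that the selection used, and nothing is drawn from them. Without these genes, 770 were called, 583 of them higher. Of all 1069 pseudogenes 46 (4.30%) were higher and 46 (4.30%) lower, against 3.84% and 1.22% of all nuclear genes, and processed copies of expressed coding genes may share their parents' reads, Gm14150 among the 12 lowest genes included.

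**Figure D4:**
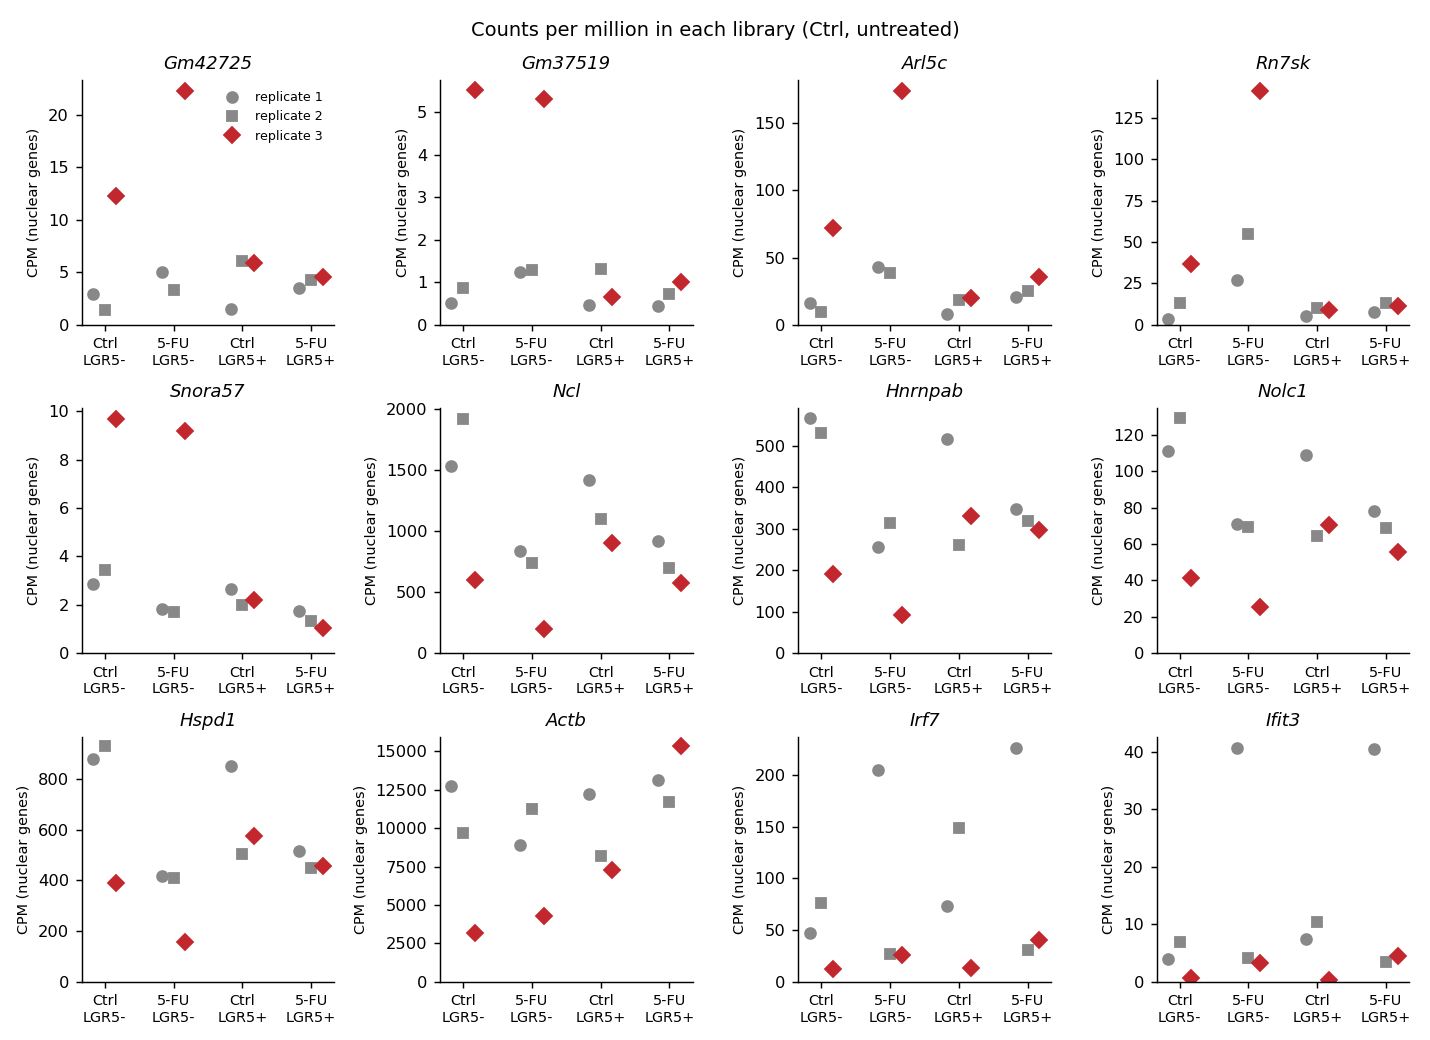
Each panel shows CPM (linear axis, from 0) of 1 gene in the 12 libraries, by group, with replicate 3 in red; LGR5- and LGR5+ libraries were scaled separately. All genes shown were called, so the rule itself puts replicate 3 of the LGR5- cells beyond both other replicates in both treatments. It stands apart for the first 10 genes, while for Irf7 and Ifit3 it lies beside replicate 2 under 5-FU and replicate 1 is far higher.

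Genes called lower were nearly all coding genes or pseudogenes: 139 of 187 were protein coding. The counts of lower genes given below for each list stand beside 1.22% of all 15345 nuclear genes and 1.10% of coding genes called lower. Among the 12 lowest were 3 genes of the nucleolus and of ribosome assembly. Ncl (nucleolin, chr1:86344719-86359400), a major nucleolar protein of ribosomal RNA transcription and processing, had 1528, 1919 and 602 CPM without and 835, 735 and 201 CPM with 5-FU, a blocked difference of -1.74 ± 0.26. Nolc1, a nucleolar chaperone of small nucleolar ribonucleoproteins, had 111, 129 and 41.1 CPM without and 71.0, 69.4 and 25.3 CPM with 5-FU. Gar1, a core protein of the box H/ACA particles, had 115, 116 and 37.1 CPM without and 67.9, 52.7 and 21.4 CPM with 5-FU. By the call rule, replicate 3 lay below both other libraries in both treatments in all 3. Their differences in LGR5+ cells were between -0.52 and -0.24. On a ribosome biogenesis list chosen after values had been seen, 8 of 55 genes were called lower and 0 higher, with medians of -0.91 and -0.45. All 55 were below the mean of replicates 1 and 2 without and 46 with 5-FU; the medians in LGR5+ cells were -0.23 and -0.04. Fbl (fibrillarin), the methyltransferase of box C/D particles, had 290, 294 and 95.3 CPM without and 175, 150 and 61.2 CPM with 5-FU, the opposite direction to Snord104.

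Some genes for proteins that package pre-messenger RNA were also called lower. Hnrnpab (chr11:51600100-51606847), which encodes an abundant RNA-binding protein, had 567, 530 and 191 CPM without and 257, 314 and 91.9 CPM with 5-FU. Its blocked difference was -1.58 ± 0.22, and its differences in LGR5+ cells were -0.15 and -0.17. Of 20 hnRNP genes, a list also chosen after values had been seen, 6 were called lower (Hnrnpab, Hnrnpa1, Hnrnpf, Hnrnpk, Hnrnpm and Ptbp1), with medians of -0.84 and -0.65, while the list of nuclear-retained RNAs and splicing factors had 0 lower and medians above 0. Ptbp1, a splicing repressor, stood at 186, 194 and 65.3 CPM without and 88.5, 104 and 38.9 CPM with 5-FU.

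Several abundant transcripts for cytoskeletal proteins, chaperones and enzymes were called lower, though each list gave few calls. Actb, the cytoplasmic beta-actin, had 12769, 9660 and 3170 CPM without and 8903, 11222 and 4301 CPM with 5-FU. On the actin and tubulin list, chosen after values had been seen, 5 of 25 genes were lower (Actb, Csrp1, Tuba1b, Tubb4b and Tubb6), with medians of -0.85 and -0.83, against -0.05 and -0.00 in LGR5+ cells. Hspd1, the mitochondrial chaperonin of the matrix, had 881, 929 and 390 CPM without and 416, 409 and 157 CPM with 5-FU. Of 17 mitochondrial chaperones and proteases, 1 (Hspd1) was called. Of 16 heat shock genes, 1 was called, Hsp90ab1, the constitutive cytosolic HSP90, with differences of -1.02 and -1.29. Of 18 endoplasmic reticulum chaperones, Calr (calreticulin) and Pdia3 (a disulphide isomerase) were lower, at -1.04 and -1.14 and at -1.10 and -1.24. Of 32 ATF4 targets, Asns (asparagine synthetase) was lower at -1.24 and -1.04, Phgdh (the first enzyme of serine synthesis) at -1.34 and -1.07, and Chac1 (a glutathione-degrading enzyme) at -1.10 and -2.02, the latter from 4 reads in 5-FU replicate 3. Krt8, a keratin of simple epithelia, had 853, 817 and 353 CPM without and 1898, 3058 and 1014 CPM with 5-FU, and was the 1 gene called of 18 on the cholangiocyte and simple epithelium list. Gsr (glutathione reductase) differed by -1.10 and -1.28, Ldha (lactate dehydrogenase A) by -1.0 and -1.34, and Hdc, the histamine-forming histidine decarboxylase, by -2.0 and -2.12. Scaling by library size only kept the direction but took the smaller difference of Hspd1, Chac1, Asns, Pdia3, Calr, Hsp90ab1, Ldha, Gsr and Krt8 to between -0.91 and -0.67, short of a call.

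Some genes of DNA replication were called lower, with a wide spread of replicates 1 and 2 under 5-FU. Of 37 cell cycle and replication genes, 6 were called lower and 0 higher (Mcm3, Mcm4, Mcm6, Plk1, Rrm1 and Rrm2), with medians of -0.59 and -0.95. Mcm6, a subunit of the replicative helicase, had 341, 339 and 150 CPM without and 112, 70.7 and 35.1 CPM with 5-FU. Rrm2, the small subunit of ribonucleotide reductase, had 247, 220 and 104 CPM without and 134, 57.5 and 34.0 CPM with 5-FU. With 5-FU the list median was -0.59 against replicate 2 alone and -1.22 against replicate 1 alone. In LGR5+ cells the list median was 0.12 without and -0.72 with 5-FU, and the latter was -0.20 against replicate 2 alone and -1.11 against replicate 1 alone. With library size only as the scaling, the smaller differences of Mcm3, Mcm6 and Rrm2 were -0.78, -0.85 and -0.83, short of a call. Without 5-FU replicate 1 those of Mcm3 and Rrm2 were -0.91 and -0.79, against -1.11 and -1.16 with it.

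Lists of nuclear genes for mitochondrial proteins gave calls at about the share of all coding genes (1.04% higher, 1.10% lower). Of 41 nuclear genes for subunits of oxidative phosphorylation, 0 were called higher and 1, Atp5b (the beta subunit of ATP synthase), was lower, at -1.0 in both treatments (the smaller difference was -0.67 with library size only). The medians of the list had opposite signs, -0.43 without and 0.36 with 5-FU, and were -0.04 and 0.40 in LGR5+ cells. Of 32 genes for mitochondrial DNA maintenance and expression, and of 16 for mitophagy and dynamics, 0 were called, with medians from -0.23 to -0.15. Cox17 and Pet100, on none of these lists, were called higher as given above. Cytosolic ribosomal proteins (47 genes, 0 called) had medians of -0.17 and 0.39, and hypoxia and glycolysis genes (32, of which Ldha was called) 0.65 and -0.96. Of 28 p53 targets, 25 immediate early genes and 15 genes of the BCL2 family, 0 were called.

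**Figure D5:**
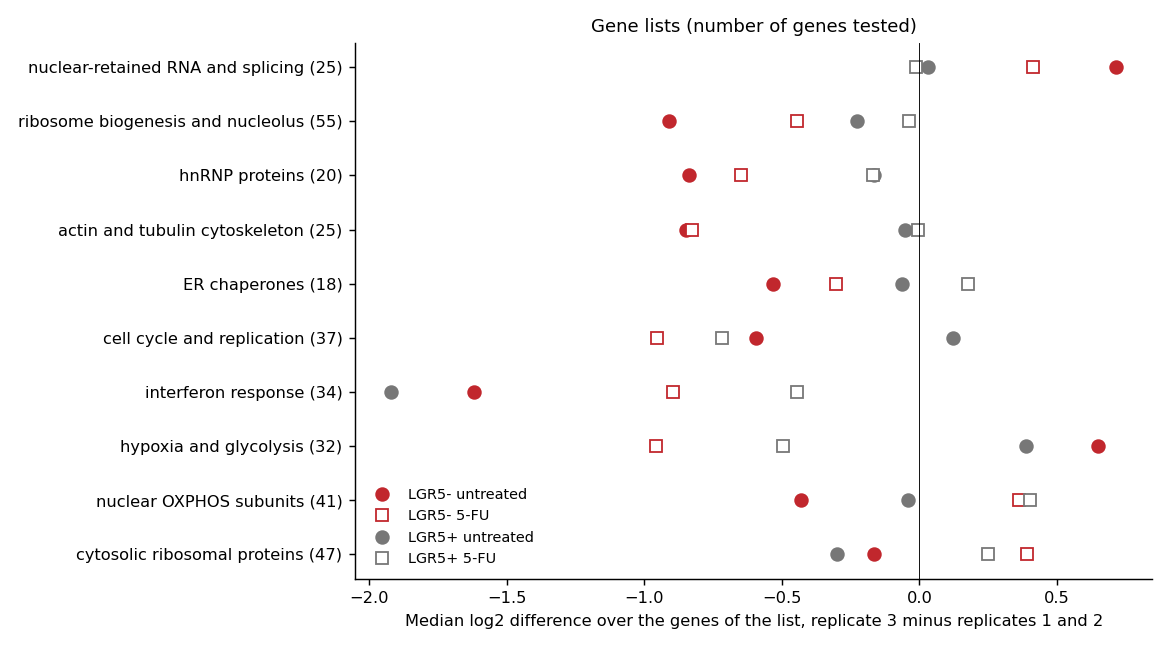
Points give the median log2 difference between replicate 3 and replicates 1 and 2 over each gene list (number of genes measured in parentheses), in LGR5- (red) and LGR5+ libraries (grey), untreated (filled circles) and with 5-FU (open squares). Nucleolar, hnRNP and cytoskeletal genes are low in LGR5- cells in both treatments, at medians of -0.91 to -0.45, and nearer 0 in LGR5+ cells. These 3 lists were chosen after the LGR5- values had been seen, so that contrast is partly built in. Interferon genes are low in untreated LGR5+ cells too.

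Several of the 12 lowest genes were interferon-induced, but interferon genes were low in replicate 3 of the untreated LGR5+ cells as well. Of 34 measured genes of the interferon list, 7 were called lower (Cmpk2, Gbp3, Ifit2, Ifit3, Ifit3b, Irf7 and Oasl1) and 0 higher, with medians of -1.62 and -0.90. Irf7, a transcription factor of the interferon response, had 47.6, 76.4 and 12.6 CPM without and 205, 26.5 and 26.1 CPM with 5-FU. Ifit3, an antiviral protein that binds its family member Ifit2, had 63, 121 and 10 reads without and 650, 66 and 42 reads with 5-FU. With 5-FU, replicate 3 was therefore close to replicate 2, and replicate 1 was the library that stood apart. Set against replicate 2 alone, the median over the list was 0.04 with 5-FU, against -1.86 when set against replicate 1. In LGR5+ cells, Ifit3 had 131, 166 and 5 reads without and 724, 61 and 76 reads with 5-FU, and the list medians were -1.92 and -0.44. With 5-FU the LGR5+ median was 0.42 against replicate 2 alone and -1.40 against replicate 1 alone. By the same rule, 0 genes of the list were lower in both treatments in LGR5+ cells. Apol9a and Apol9b, near-identical genes whose reads may be split between them, were the lowest among genes with at least 5 CPM, at -2.89 and -2.07 and at -3.29 and -2.36, and neither is on the list. These low ranks rested on 5-FU replicate 1. Without it the smaller difference went from -2.36 to -0.45 for Apol9b, from -2.07 to -0.33 for Apol9a, from -1.92 to -0.31 for Ifit3, from -1.97 to -0.81 for Oasl1, from -2.22 to -0.89 for Ifit2 and from -1.49 to -0.06 for Irf7, and these 6 calls were lost. The Apol9a and Apol9b LGR5+ differences were -3.22 and -1.42 and -3.48 and -1.39.

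Promoters of 3 of these genes are shown because they hold the letters GAAANNGAAA of the interferon-stimulated response element, searched on both strands in the 250 bases before the start. Of the 7 interferon-list genes called lower, 3 had the letters in their promoter, and Ifit2, Irf7, Oasl1 and Cmpk2 did not. Each promoter shown held 2 matches, all on the opposite strand. Capitals mark the matches inside the printed stretch: 1 for Ifit3, and 2 overlapping ones for Apol9a and Apol9b. Each stretch is 60 bases on the gene's strand from the RefSeq promoters of GRCm38.p6: chr19:34583382-34583441 (plus) for Ifit3, chr15:77411099-77411158 (minus) for Apol9a and chr15:77729012-77729071 (plus) for Apol9b.
Ifit3: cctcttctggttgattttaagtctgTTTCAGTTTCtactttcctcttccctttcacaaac
Apol9a: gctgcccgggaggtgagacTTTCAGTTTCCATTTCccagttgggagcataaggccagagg
Apol9b: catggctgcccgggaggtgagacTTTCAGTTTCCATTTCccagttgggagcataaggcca

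The letters were in 2.64% of the 10503 promoters of tested genes that the table held. They were in 12 of 28 promoters of the interferon list (42.9%), in 13 of 115 promoters of genes called lower (11.3%) and in 4 of 170 of genes called higher (2.35%). The E-box letters CACGTG, a binding motif of MYC and other factors, were in 8.30% of all promoters, in 12 of 115 promoters of lower genes (10.4%), in 6 of 170 of higher genes (3.53%) and in 4 of 48 of the ribosome biogenesis list (8.33%). A match is a description of the letters only. Lower coding genes had a median exonic length of 3265 bases and 51.2% GC, and higher coding genes 3569 bases and 49.9% GC, against 4434.5 bases and 49.9% GC over all tested coding genes.

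Markers of other cell types were measured beside these groups. Of 8 measured macrophage genes, Tyrobp and Ctss were called higher, from few reads; this and the airway count below stand beside 3.84% of all nuclear genes and 1.04% of coding genes called higher. Tyrobp, an adaptor of immune receptors, had 0, 6 and 28 reads without and 10, 10 and 20 reads with 5-FU, against 1 to 4 reads in LGR5+ libraries, and Ctss, a lysosomal protease, had 2, 5 and 21 reads without and 17, 6 and 19 reads with 5-FU; the smaller difference of Ctss went from 1.09 to 0.43 without 5-FU replicate 2. Csf1r and Adgre1, picked from the rest of the list, had 4 and 11 reads and 7 and 5 reads in the libraries labelled replicate 3. The macrophage list had medians of 1.08 without and 0.38 with 5-FU, against -0.10 and 0.03 in LGR5+ cells. The summed list gave 52.4 CPM in untreated replicate 3 against 41.3 and 42.9 CPM, and 171 CPM in 5-FU replicate 3 against 175 and 106 CPM, with 56.9 to 179 CPM in LGR5+ cells. Of 9 measured airway genes, Scgb1a1 (a club cell secretoglobin) and Trp63 (a basal cell transcription factor) were higher. Scgb1a1 had 8, 15 and 61 reads without and 154, 413 and 701 reads with 5-FU, and 2 to 1180 reads in LGR5+ cells. The airway list had medians of 0.53 and 0.51, against 0.62 and 0.07 in LGR5+ cells. The summed list gave 54.9 CPM in untreated replicate 3 against 36.8 and 35.7 CPM, but 171 CPM in 5-FU replicate 3 against 202 and 311 CPM. The cholangiocyte and simple epithelium list had medians of -0.36 and -0.58, against -0.04 and 0.11 in LGR5+ cells, and its sum was lowest in replicate 3, at 5622 CPM against 6384 and 6380 CPM without and 7918 CPM against 12326 and 17664 CPM with 5-FU. Of 9 measured hepatocyte genes, 1 was called lower, Alb, with 10, 21 and 5 reads without and 31, 14 and 2 reads with 5-FU; the list medians were 0.17 and -0.23. Of the endothelial, fibroblast and erythroid genes (6, 8 and 2 measured), 0 were called. The summed surfactant list gave 4459 CPM in untreated replicate 3 against 16695 and 17197 CPM, but LGR5+ replicates 2 and 3 were low too, at 6815 and 5963 CPM against 16288 CPM in replicate 1. With 5-FU the sum was highest in LGR5- replicate 3, at 7098 CPM against 5412 and 6858 CPM. The part of other cell types in the gene differences was not tested.

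The LGR5+ libraries, which the selection did not use, were read by the same replicate number. No source states that libraries of the same number share a culture or sort. The counts below therefore describe the LGR5+ cells, and whether a shared batch carries the LGR5- differences was not tested. By the same rule on values, replicate 3 of the LGR5+ cells was higher than replicates 1 and 2 in both treatments for 3 of 15145 genes (0.0198%) and lower for 11 (0.0726%). Of the 590 genes higher in LGR5- cells 479 were measured, 1 of them was also higher and 0 were lower. Of the 187 lower genes 186 were measured, 0 were higher and 1 was also lower. The median difference of the higher genes was 1.62 without and 1.34 with 5-FU in LGR5- cells, compared with 0.11 and 0.14 in LGR5+ cells; that of the lower genes was -1.24 and -1.30, compared with -0.14 and -0.26. A fit of replicate 3 against replicates 1 and 2 in LGR5+ cells, with treatment as a block, called 0 of 15159 genes (edgeR quasi-likelihood, Benjamini-Hochberg adjusted p under 0.05). There were 218 genes at an unadjusted p under 0.05, and DESeq2 also called 0. The fit called 20 genes, all lower in replicate 3, when 5-FU LGR5+ replicate 2 was left out. Whether the replicate 3 difference itself differed between the fractions was not tested, since the LGR5- side was selected on its own values.

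The study's comparison of 5-FU with no treatment in LGR5- cells was fitted with and without both libraries. With all libraries, 2489 of 16157 genes (15.4%) passed an adjusted p of 0.05 (edgeR), and without replicate 3 of the LGR5- cells 2741 of 16182 (16.9%), with 1923 genes in common. Of the genes called higher in replicate 3, 11 of 590 (1.86%) passed with and 44 of 563 (7.82%) without these libraries, 42 of the 44 being higher with 5-FU. Of those called lower in replicate 3, 33 of 187 passed with and 62 of 187 without them, 29 in both, and 55 of the 62 were lower with 5-FU. These genes were selected because replicate 3 departs from the others, so leaving it out must narrow their spread, and nothing is read from the rise in calls. Leaving out untreated replicate 3 alone gave 3418 genes and 5-FU replicate 3 alone 1792, while leaving out 1 of the other 4 LGR5- libraries gave 1562 to 2509.

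For LGR5+ against LGR5- cells, edgeR called 0 genes without treatment, with or without replicate 3, with 214 genes at an unadjusted p under 0.05 and 0 by DESeq2. With 5-FU it also called 0, with 2095 genes at an unadjusted p under 0.05. DESeq2 called 82 genes in the 5-FU comparison, and the fit with the replicate number as a block called 451 of 15196 (2.97%). The blocked calls included 31 of 488 tested genes (6.35%) that were higher in replicate 3, 29 of them lower in LGR5+ cells, and 10 of 182 (5.49%) that were lower in replicate 3, all 10 higher in LGR5+ cells. These comparisons share the 2 selected libraries with the selection, so the direction of the members in them is partly fixed by it and nothing is read from these counts.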

How the data were processed

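RNA of sorted cells was extracted with a micro-column kit, copied with a SMARTer kit and sequenced as read pairs. Per the labels, the submitters' processing notes name HISAT2, HISAT, TopHat2, HTSeq and the build mm8, without roles; the strand setting and annotation are not given in the sources used here. The values deposited are raw counts per Ensembl gene (47069 genes, 12 libraries), which the authors had not normalised; 495 identifiers had no symbol. Totals of 13750591 to 19323514 reads mean that 3 reads correspond to 0.155 to 0.218 CPM, for counting error only. Positions and gene classes were taken from GENCODE M21 on GRCm38, which may differ from the annotation counted.

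The members, gene lists and rules were chosen with earlier results of these data known. Mitochondrially encoded genes were removed before scaling of the nuclear genes by TMM (edgeR 4.0.16, R 4.3.3), with edgeR's filter on low counts by treatment and a prior count of 2. LGR5- and LGR5+ libraries were scaled separately. The call rule is given with the results. The blocked difference with its SE came from a quasi-likelihood fit of treatment and replicate 3 and served as a description. Labelled comparisons used edgeR's quasi-likelihood test over 12 libraries and 4 groups with Benjamini-Hochberg adjustment. DESeq2 1.42.0, other scalings and filters, and left-out libraries were alternatives. Genes were named as the 12 highest and 12 lowest called genes with at least 5 CPM, up to 3 called members per list, and Lgr5. The 5 CPM had to be met in both treatments by the higher of replicate 3 and the mean of replicates 1 and 2. The text says where most others were added. The scripts were tested on simulated counts. No pair of libraries was alike within sampling noise. The closest pair came from different groups, at a chi-square per degree of freedom of 4.74. The closest pair within a group stood at 16.7, so some libraries of different groups were more alike than any replicates.

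Replicate numbers are shared between groups. Deviations of same-numbered LGR5+ and LGR5- libraries with 5-FU correlated at 0.57, 0.22 and 0.30 over 16157 genes. These values overlap those of the other comparisons, given below, and no source states a shared culture. The main fits did not pair libraries by number, and the replicate block was run as an alternative.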

Additional observations from a re-analysis of the deposited data

How the results depend on the processing

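The 777 genes called in both treatments became 769 with DESeq2's size factors, 752 with mitochondrial genes in the totals, 859 with a prior count of 0.5 and 770 without genes sharing sequence with mitochondrial transcripts, an alternative chosen after seeing the data. They became 1265 without a filter on low counts, 447 when each library needed 10 reads or more, and 135 (115 higher, 20 lower) at a log2 difference of at least 1.5; fewer or more genes enter these counts by construction. Scaling by library size only gave 660 higher and 77 lower genes (89.6% higher, against 75.9%), as it moved the median of all genes from -0.01 to 0.32 without treatment. Leaving out 1 of the other LGR5- libraries gave 708 to 913. Of the 44 genes named by rule and called, every one with a value kept its direction under the 10 alternatives of scaling, totals, filter, prior count and left-out library (36 had a value when each library needed 10 reads or more). The smaller difference went below 1 for 13 of them with library size only, Mcm3, Mcm6, Rrm2 and Atp5b included, for 12 without 5-FU LGR5- replicate 1 (Apol9a, Apol9b, Asns, Atp5b, Hsp90ab1, Ifit2, Ifit3, Irf7, Ldha, Mcm3, Oasl1 and Rrm2), and for 0 to 5 under the others. Genes that the text adds beyond the rule were not run singly. The response of LGR5- cells to 5-FU went from 2489 genes to 1282 in a fit of the 6 libraries alone, to 2531 with the replicate block, and to 1562 to 3418 with 1 replicate left out; the cause was not tested. Fewer calls came without untreated LGR5- replicate 1 (1562) or 2 (1645) or without 5-FU LGR5- replicate 2 (1649). Same-numbered libraries in that comparison correlated at 0.05, 0.28 and 0.42. Those of untreated LGR5+ and LGR5- cells correlated at 0.48, -0.12 and 0.22, and the block called 0 genes there. These values overlap those of the 5-FU-treated fractions, so in no comparison was the number taken to mark pairs. The 0 genes between LGR5+ and LGR5- cells with 5-FU became 11 without a filter, 82 with DESeq2 and 451 with the replicate block, and stayed 0 with any 1 replicate left out. For replicate 3 in LGR5+ cells, 0 became 6 without a filter and 0 to 20 with 1 library left out. No block was possible where the replicate number was itself the contrast. With 1 selected library per treatment, the spread among such libraries could not be measured, and genes under about 10 reads in a library rest on wide counting error.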
